A study of Mus musculus with 12 samples.

Results

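The genes described here are the cadherins, claudins and desmosome components of the urogenital sinus epithelium, the embryonic epithelium from which the urethra, the bladder neck and, in males, the prostate develop. They were taken by symbol, as all genes named Cdh, Cldn, Dsg, Dsc, Pkp or Tjp with a number, together with Dsp, Jup, Ocln, Epcam and F11r. This gave 69 of the 20308 genes in the deposited table. RNA sequencing was done on epithelium freed from its stroma with trypsin, from C57BL/6J embryos at embryonic day 15.5. In the Dnmt1cKO group (8 libraries), Cre recombinase expressed from a Shh driver had deleted Dnmt1 in this epithelium. The Control group (4 libraries) came from wildtype embryos. Tissue of several embryos went into each lysate, and whether libraries with the same description code came from separate pools is not given, so p-values reflect only the differences among these libraries, which may be technical. Dnmt1 encodes the enzyme that copies CpG methylation onto newly made DNA.

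Epithelial cells are held to each other by several kinds of junction. In adherens junctions, classical cadherins bind across the gap between cells and are tied to actin through catenins. In desmosomes, the desmogleins (Dsg) and desmocollins (Dsc) do the binding, and the plaque proteins plakoglobin (Jup), the plakophilins (Pkp) and desmoplakin (Dsp) tie them to keratin filaments. Tight junctions near the apical surface are strands of claudins with occludin (Ocln), held on zonula occludens scaffolds (Tjp), and they set which solutes pass between cells. Levels are given below in CPM, that is, as a gene's count divided by the scaled total of its library and multiplied by 1e+06. In whole tissue, fewer cells that express a gene and less RNA per cell cannot be told apart.

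Library depth differed widely. The Dnmt1cKO libraries held 4007533 to 11970907 expected counts, Controls 1, 2 and 3 held 7577706, 2915193 and 1613514, and the library labelled Control 4 held 543591. A count of 1 was worth 0.0730 to 0.285 CPM in the Dnmt1cKO libraries and 0.123, 0.337 and 0.754 CPM in Controls 1, 2 and 3, but 2.84 CPM in the library labelled Control 4. Dnmt1 stood at 22.8 to 97.0 CPM in Dnmt1cKO, at 164, 114 and 237 CPM in Controls 1, 2 and 3, and at 2.84 CPM, a count of 1, in the library labelled Control 4. That level goes against the label, but it was also below every Dnmt1cKO library. The library had counts for 6740 genes, against 10197 to 13829 in Dnmt1cKO and 13098, 10738 and 9085 in Controls 1, 2 and 3. The cause was not tested. Dnmt1 was not called by edgeR with all 12 libraries (log2 fold change -1.29 ± 0.63, SE, adjusted p = 0.284). Without Control 3 and the library labelled Control 4 it was not called either (-1.31 ± 0.42, adjusted p = 0.289). In Control 3, 6 of 8 epithelial markers were below every Dnmt1cKO library (Trp63 2.26, Foxa1 2.26, Shh 3.77, Krt19 11.3, Krt7 124 and Krt5 292 CPM), while Krt8 (856 CPM) lay within the Dnmt1cKO range and Krt18 (879 CPM) above it, both above Controls 1 and 2. This library was also high in Sox10 (88.2 CPM) and Ret (210 CPM), markers of neural and glial cells. Every comparison is therefore given with all 12 libraries and with the 10 libraries that remain without Control 3 and the library labelled Control 4.

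Of the 69 genes, 14 had no count in any library and 40 passed the filter on low counts. With all 12 libraries, 0 of the 40 were higher in Dnmt1cKO at an adjusted p under 0.05 and 2 were lower, namely Pkp4, a plakophilin, and Cdh2, N-cadherin (edgeR quasi-likelihood F-test, Benjamini-Hochberg adjusted over 12761 genes). Of all genes tested, 1.03% were called higher and 1.55% were called lower. At an unadjusted p under 0.05, Cdh19, Cldn9, Dsc3 and Ocln were higher, against 8.19% of all genes, and 6 genes were lower (Cdh1, Cdh18, Cdh2, Cldn11, Pkp2 and Pkp4), against 9.54%. Without Control 3 and the library labelled Control 4, 46 of the genes were tested and 0 were called in either direction by edgeR, against 0.322% of all 13990 genes tested for higher and 0.0143% for lower. In those 10 libraries 4 genes, Cdh19, Dsc2 and Ocln among them, had an unadjusted p under 0.05 and were higher, against 6.96% of all genes, and 0 were lower, against 2.22%. With those 10 libraries DESeq2 called 2 higher (Cdh19 and Dsc2), against 2.91% of all genes, and 1 lower (Cdh12), against 0.57%, and limma-voom called 0 in either direction, against 0.0929% and 0.365%. With all 12 libraries DESeq2 called 2 higher (Cdh19 and Ocln), against 3.45% of all genes, and 5 lower (Cdh1, Cdh2, Cldn11, Pkp2 and Pkp4), against 6.89%. EdgeR with RLE scaling called 0 higher, against 1.33%, and the same 5 lower, against 5.69%. Limma-voom with quality weights called 0 in either direction, against 0.0549% higher and 0.196% lower.

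Most of the log2 fold changes did not reach an unadjusted p under 0.05 by edgeR. They were above 0 for 26 of the 40 tested genes, which is 65.0% against 57.3% of all genes, with a median of 0.17 against 0.22 for all genes. In the 10-library comparison they were above 0 for 33 of 46, which is 71.7% against 57.2%, with a median of 0.41 against 0.16. The median over all genes itself moved with the scaling, to 0.07 under RLE scaling and 0.38 under library totals alone, so a small log2 fold change has no direction of its own here. For 10 of the 40 genes the sign of the log2 fold change differed between the 12-library and the 10-library comparison. Of the 14 genes with a negative log2 fold change in the 12 libraries, 11 (78.6%) had their highest level in Control 3 or in the library labelled Control 4, as had 68.5% of the 5446 genes of the whole table with a negative value.

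**Figure D1:**
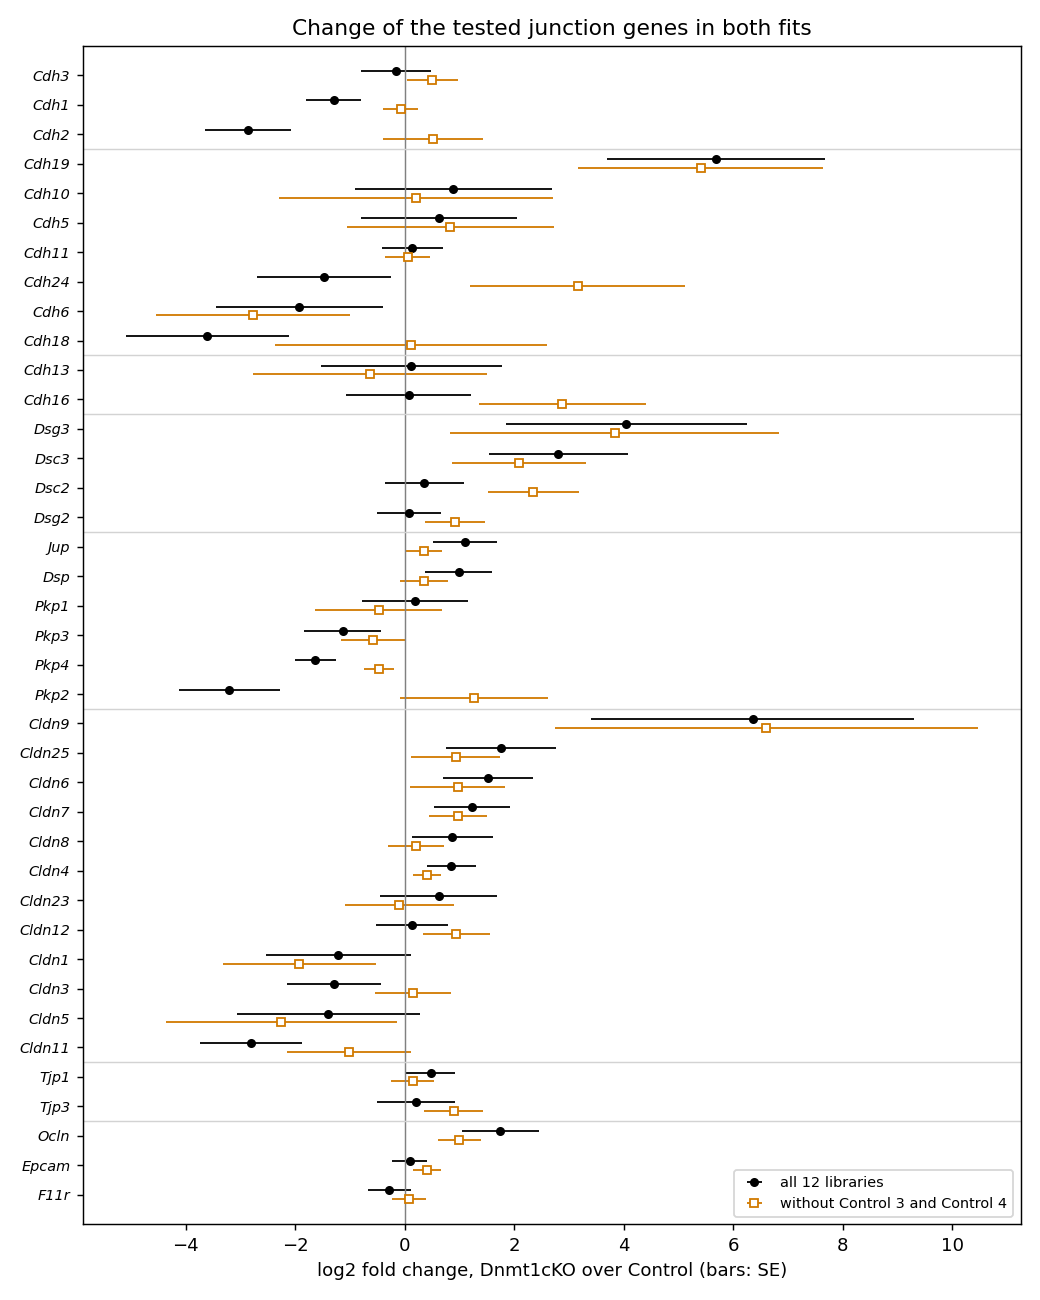
Log2 fold change of Dnmt1cKO over Control for the tested junction genes, with all 12 libraries and without Control 3 and the library labelled Control 4. Points are the fitted values and bars are ± SE. Pkp4 (-1.63) and Cdh2 (-2.86) are the genes called lower with 12 libraries, and both lie near 0 (-0.47 and 0.52) with 10.

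Dnmt1 acts on CpG dinucleotides, so the DNA just upstream of the start is shown for some of the genes the results turn on. Chosen after their values were seen, these are Pkp4, called lower, Ocln and Cldn4, whose levels in every Dnmt1cKO library lay above every Control library, and Cdh22, which was nearly silent. Each sequence is the 250 bases before the RefSeq start on the gene's own strand in GRCm38.p6, 5′ to 3′, with each CpG in capitals.
Pkp4 (chr2:59160600-59160849, plus strand, 21 CpG): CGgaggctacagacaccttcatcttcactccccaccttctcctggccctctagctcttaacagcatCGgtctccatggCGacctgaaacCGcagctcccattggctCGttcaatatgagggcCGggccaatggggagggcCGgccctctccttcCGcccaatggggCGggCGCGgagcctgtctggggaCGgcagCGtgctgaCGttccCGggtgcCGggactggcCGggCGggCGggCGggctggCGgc
Ocln (chr13:100552719-100552968, minus strand, 14 CpG): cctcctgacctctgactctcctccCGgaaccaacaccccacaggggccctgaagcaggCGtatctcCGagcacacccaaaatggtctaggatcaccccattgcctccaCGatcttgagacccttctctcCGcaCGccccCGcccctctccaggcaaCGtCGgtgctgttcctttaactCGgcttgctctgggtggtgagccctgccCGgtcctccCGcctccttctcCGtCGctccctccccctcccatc
Cldn4 (chr5:134946935-134947184, minus strand, 7 CpG): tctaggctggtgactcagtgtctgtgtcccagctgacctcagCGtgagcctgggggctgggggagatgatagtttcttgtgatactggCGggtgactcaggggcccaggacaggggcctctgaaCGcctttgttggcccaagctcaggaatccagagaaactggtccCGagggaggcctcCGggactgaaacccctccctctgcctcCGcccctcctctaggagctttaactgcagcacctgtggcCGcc
Cdh22 (chr2:165234738-165234987, minus strand, 30 CpG): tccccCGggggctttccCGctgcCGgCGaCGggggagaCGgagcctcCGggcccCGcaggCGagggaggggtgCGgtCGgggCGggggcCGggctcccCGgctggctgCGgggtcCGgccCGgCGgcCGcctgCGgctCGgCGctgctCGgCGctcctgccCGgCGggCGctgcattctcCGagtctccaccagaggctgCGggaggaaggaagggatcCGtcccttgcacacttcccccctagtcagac

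Over the 27025 genes with such a window the median was 6 CpG. Of those genes, 94.4% had fewer CpG than Cdh22, 83.9% fewer than Pkp4, 70.5% fewer than Ocln and 53.4% fewer than Cldn4. Cdh22, the most CpG-dense of these windows, had 6 counts in Dnmt1cKO 3 and none in the other 11 libraries. In the GENCODE M21 annotation its gene reaches to base 165234853 of chromosome 2, so part of the Cdh22 window lies within the gene there. Methylation was not measured in these libraries. Only 40 of the 69 genes (58.0%) matched a window, under the 80% needed, so a check of CpG content over the whole set is void.

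The classical cadherins of the epithelium were led by Cdh1, E-cadherin, the defining cadherin of adherens junctions. Per kilobase of exon it was the highest of the 67 genes with an exon length in Dnmt1cKO, with a median of 379 CPM per kb. Its level was 1105 to 2572 CPM in the Dnmt1cKO libraries, with a median of 1679.9, against 1234, 2714 and 863 CPM in Controls 1, 2 and 3 and 12784.5 CPM in the library labelled Control 4. All Dnmt1cKO libraries thus lay within the range of the Controls, and the library labelled Control 4 stood far above all others. With 12 libraries the log2 fold change was -1.297 ± 0.51 (SE, edgeR adjusted p = 0.186), and it was -0.07 ± 0.32 (adjusted p = 0.959) with 10. Without the library labelled Control 4 alone it was 0.23.

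Cdh2, N-cadherin, is typical of neural and mesenchymal cells and lies on chromosome 18. In the Dnmt1cKO libraries it stood at 3.01 to 49.3 CPM with a median of 27.7, against 27.8, 6.74 and 595 CPM in Controls 1, 2 and 3 and 68.2 CPM in the library labelled Control 4. Control 3 stood far above every other library, and the Dnmt1cKO libraries spanned the values of Controls 1 and 2. It fell by 2.86 ± 0.79 on the log2 scale (SE, edgeR adjusted p = 0.0450) with 12 libraries. Without Control 3 alone the value was -0.46 (adjusted p = 0.855), without the library labelled Control 4 alone it was -3.04 (adjusted p = 0.146), and with 10 libraries it was 0.52 ± 0.92 (adjusted p = 0.887). Control 3 also held the highest summed level of the stromal markers (11263 CPM, against 279 to 6846 in Dnmt1cKO and 5061 and 5913 in Controls 1 and 2) and of the neural and glial markers (589 CPM, against 21.4 to 284 in Dnmt1cKO and 176 and 98.8 in Controls 1 and 2). Their part in the level of Cdh2 was not tested.

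Cdh3, P-cadherin, a cadherin of basal epithelial cells, lies 46.1 kb upstream of Cdh1 on chromosome 8. Its level was 28.7 to 119 CPM in Dnmt1cKO with a median of 79.3, against 42.0, 80.9 and 234 CPM in Controls 1, 2 and 3 and 5.69 CPM in the library labelled Control 4. These Controls spanned a wider range than all 8 Dnmt1cKO libraries, and the log2 fold change was -0.16 ± 0.64 (edgeR adjusted p = 0.930) with 12 libraries and 0.50 ± 0.47 (adjusted p = 0.735) with 10. Set per kilobase, Cdh1 made up 90.6 to 97.9% of the sum of Cdh1, Cdh2 and Cdh3 in Dnmt1cKO, against 94.8% and 96.9% in Controls 1 and 2 and 99.5% in the library labelled Control 4. In Control 3 it was 52.9%, with 32.6% Cdh2 and 14.5% Cdh3. The remaining members of this class were close to absent. Cdh4, R-cadherin, reached 2.48 CPM in Dnmt1cKO and 1.97 CPM in Control 1 with 0 in the other Controls, and Cdh15, the cadherin of muscle cells, had 38 counts in 2 Dnmt1cKO libraries and 0 in the Controls.

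Of the 13 type II cadherins, which are found mainly in mesenchyme, vessels and the nervous system, 7 were tested with 12 libraries and 0 were called by edgeR, while DESeq2 called Cdh19 higher. Cdh11, a cadherin of mesenchymal cells, was the highest of them, at 62.0 to 235 CPM in Dnmt1cKO with a median of 105, against 160, 85.3 and 183 CPM in Controls 1, 2 and 3 and 14.2 CPM in the library labelled Control 4. Its groups overlapped throughout, and the log2 fold change was 0.14 ± 0.56 (edgeR adjusted p = 0.929) with 12 libraries and 0.06 ± 0.41 (adjusted p = 0.977) with 10. Transcripts of a mesenchymal cadherin were thus present in every library of this trypsin-separated epithelium. The summed stromal markers were 279 to 6846 CPM in Dnmt1cKO, with a median of 1769, and 5061, 5913, 11263 and 1317 CPM in the 4 Control libraries in their order. Cdh5, the cadherin of blood vessel endothelium, was at 0 to 18.2 CPM in Dnmt1cKO with a median of 6.29, against 8.36, 0 and 3.02 CPM in Controls 1, 2 and 3 and 8.53 CPM in the library labelled Control 4. Its log2 fold change of 0.62 ± 1.43 (edgeR adjusted p = 0.864) was smaller than its error.

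Cdh19, known from Schwann cell precursors, was the gene of this class whose groups did not overlap. It stood at 0.875 to 16.3 CPM in the Dnmt1cKO libraries with a median of 5.92, against 0.337 CPM, a count of 1, in Control 2 and 0 in the other 3 Control libraries. All 8 Dnmt1cKO libraries were above every Control, with 359 counts against 1. In the library labelled Control 4, however, a count of 1 is worth 2.84 CPM, more than the level in Dnmt1cKO 1, 3 and 5 (0.875, 2.08 and 2.02 CPM). Lying above the 0 of that library is therefore partly set by its depth. Cdh19 also passed the filter on low counts only through Dnmt1cKO libraries. The ratio of the mean Dnmt1cKO level to the pooled Control level was 77.2, with an exact Poisson 95% counting interval of 13.9 to 3051 that covers counting error only. By edgeR the adjusted p was 0.121 with 12 libraries and 0.460 with 10, so it was not called. Sox10, another gene of Schwann cell precursors, was at 0 to 6.09 CPM in Dnmt1cKO and at 88.2 CPM in Control 3, where Cdh19 was at 0.

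Cdh18, a cadherin of the nervous system, and Cdh24 followed the pattern of Cdh2 in that Control 3 was the highest library. Cdh18 was at 0 to 3.42 CPM in Dnmt1cKO with a median of 1.002, against 2.58, 0 and 64.1 CPM in Controls 1, 2 and 3 and 0 in the library labelled Control 4. Its log2 fold change was -3.61 ± 1.49 (edgeR adjusted p = 0.189) with 12 libraries and 0.11 ± 2.48 (adjusted p = 0.991) with 10. Cdh24 was at 0 to 47.1 CPM in Dnmt1cKO, against 1.84, 0.337 and 108 CPM in Controls 1, 2 and 3 and 0 in the library labelled Control 4. The high values of both in Control 3 stood beside its high neural and glial markers, whose part was not tested. Cdh6 showed another order, at 0 to 3.92 CPM in Dnmt1cKO, against 6.52 and 14.5 CPM in Controls 1 and 2 and 0 in Control 3 and the library labelled Control 4. All 8 Dnmt1cKO libraries lay below Controls 1 and 2, but the log2 fold change of -2.77 ± 1.78 with 10 libraries was not called (edgeR adjusted p = 0.612). Cdh12 was at 0 to 3.23 CPM in Dnmt1cKO, against 0.738 and 15.5 CPM in Controls 1 and 2 and 0 in Control 3 and the library labelled Control 4, and was tested only with 10 libraries (-3.98 ± 1.95, edgeR adjusted p = 0.561, called lower by DESeq2). Cdh10 reached 12.3 CPM in Dnmt1cKO and 3.57 CPM in Control 1. The rest of the class was at or near 0. Cdh20 had 106 counts in 3 Dnmt1cKO libraries and 0 in the Controls, Cdh8 had 25 counts in 2 Dnmt1cKO libraries, Cdh22 had its 6 counts, Cdh7 had 28 counts in Control 1 only, and Cdh9 reached 0.702 CPM in Dnmt1cKO and 15.5 CPM in Control 2.

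The 5 cadherins outside these classes also had no call by edgeR. Cdh16, the kidney-specific cadherin of tubule and Wolffian duct epithelium, was at 0 to 84.7 CPM in Dnmt1cKO with a median of 36.5, against 9.96, 1.35 and 145 CPM in Controls 1, 2 and 3 and 0 in the library labelled Control 4. Of the Dnmt1cKO libraries 6 lay above Controls 1 and 2, yet Control 3 was the highest library of all. The log2 fold change was 0.08 ± 1.138 (edgeR adjusted p = 0.984) with 12 libraries and 2.88 ± 1.53 (adjusted p = 0.580) with 10. Of the 4 markers of Wolffian duct and kidney, Pax2, Pax8 and Lhx1 were at 0 in Control 3, where Cdh16 was highest, and Emx2 alone was at 95.7 CPM there. Their summed level was 0.224 to 84.7 CPM in Dnmt1cKO, against 19.3, 5.73 and 95.7 CPM in Controls 1, 2 and 3 and 0 in the library labelled Control 4. The part of these markers in the level of Cdh16 was not tested. Cdh13 reached 8.39 CPM in Dnmt1cKO and 6.02 CPM in Control 1. Cdh17, an intestinal cadherin, had 74 counts in 3 Dnmt1cKO libraries and 0 in the Controls, Cdh23 had 13 counts in Dnmt1cKO 3, and Cdh26 was found in Dnmt1cKO 1 (1.97 CPM) and Control 1 (2.34 CPM) only.

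**Figure D2:**
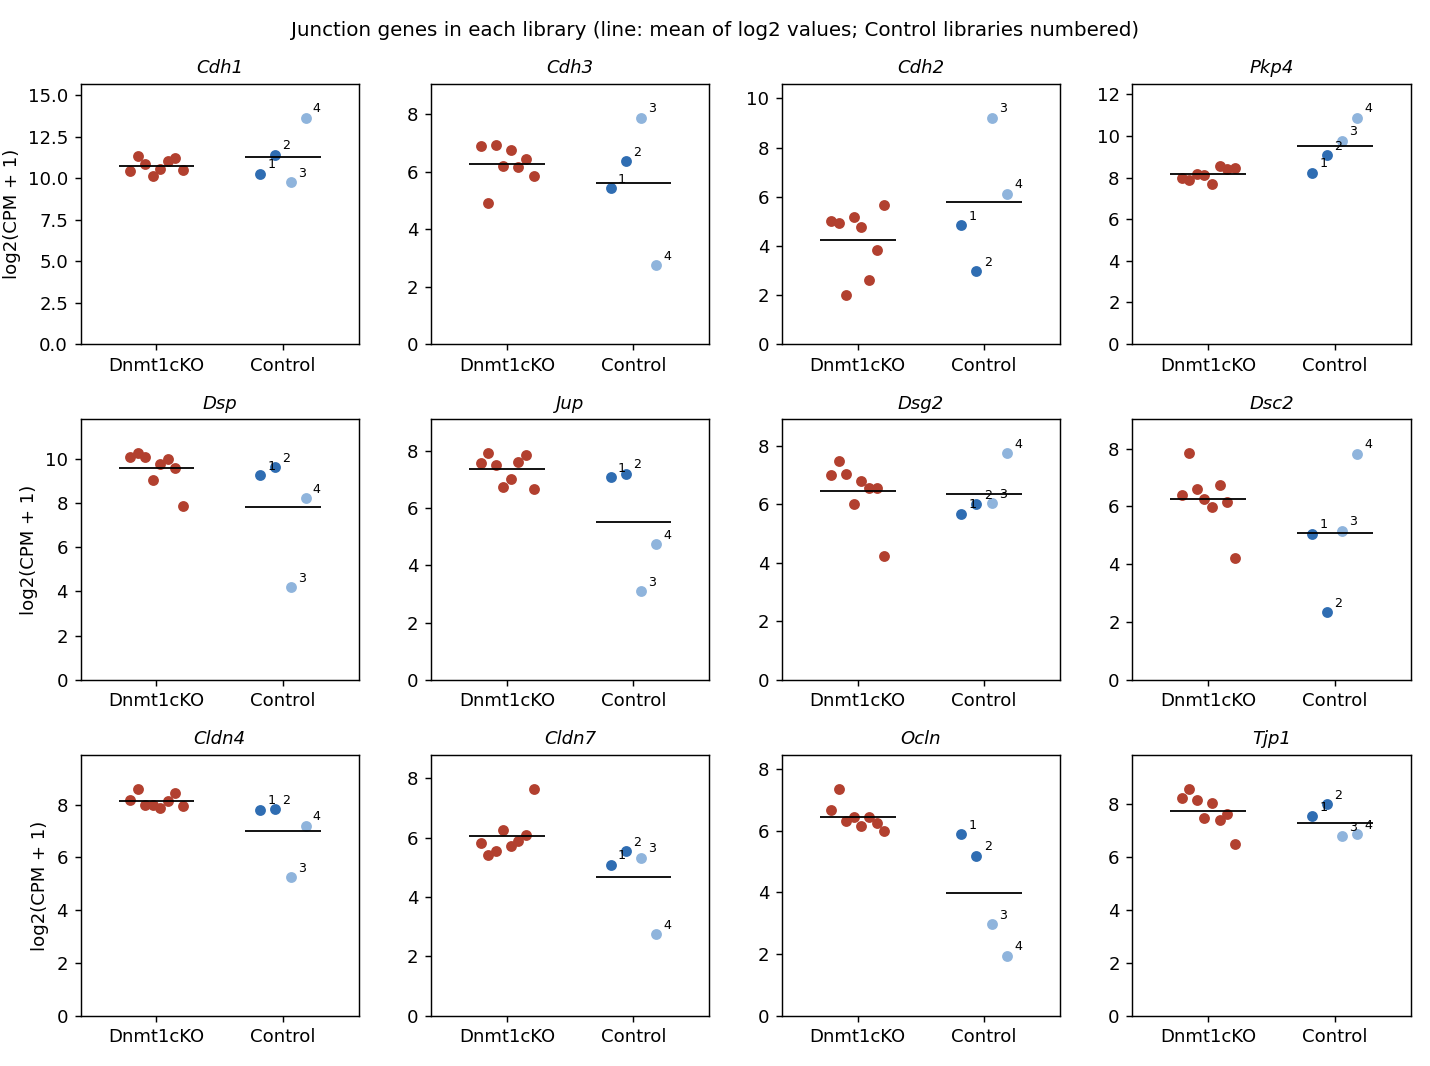
Level of 12 main junction genes in each library, as log2(CPM + 1) on the vertical axis, with Dnmt1cKO libraries in red at the left and Control libraries in blue at the right; Controls are numbered, with Controls 3 and 4 in the lighter blue, and the line is the mean of the log2 values. For Cdh2 and Pkp4 the lighter points are the highest of all libraries, while for Ocln and Cldn4 every Dnmt1cKO library is above every Control.

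The desmosomal cadherins are encoded in a row of 9 genes on chromosome 18. Those of simple epithelia, Dsg2 and Dsc2, carried most of the signal. Dsg2 was at 17.97 to 180 CPM in Dnmt1cKO with a median of 103, against 50.2, 63.4 and 64.8 CPM in Controls 1, 2 and 3 and 213 CPM in the library labelled Control 4. Dnmt1cKO 8 was the lowest library and the library labelled Control 4 the highest, and 7 of 8 Dnmt1cKO libraries lay above Controls 1 and 2. Its log2 fold change was 0.08 ± 0.58 (edgeR adjusted p = 0.961) with 12 libraries, with the sign reversed under RLE scaling (-0.71), and 0.92 ± 0.55 (adjusted p = 0.603) with 10. Dsc2 was at 17.4 to 227 CPM in Dnmt1cKO with a median of 79.4, against 32.2, 4.05 and 34.7 CPM in Controls 1, 2 and 3 and 225 CPM in the library labelled Control 4. Again 7 of 8 Dnmt1cKO libraries lay above Controls 1 and 2, and the library labelled Control 4 was level with the highest Dnmt1cKO library. This gave a log2 fold change of 0.36 ± 0.72 (edgeR adjusted p = 0.838) with 12 libraries, negative under RLE scaling (-0.66), and 2.35 ± 0.83 (adjusted p = 0.369, unadjusted p = 0.0134) with 10.

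Desmosomal cadherins of stratified epithelium were lower in level, and their few Control counts came almost entirely from Control 1. Dsc3 was at 0.877 to 28.2 CPM in Dnmt1cKO with a median of 17.6, against 7.25 and 0.674 CPM in Controls 1 and 2 and 0 in both Control 3 and the library labelled Control 4. Every Dnmt1cKO library except Dnmt1cKO 5 was above every Control. Dsc3 had a log2 fold change of 2.81 ± 1.27 (edgeR adjusted p = 0.232, unadjusted p = 0.0334) with 12 libraries and 2.09 ± 1.22 (adjusted p = 0.598) with 10. Dsg3 was at 0 to 7.63 CPM in Dnmt1cKO with a median of 1.014, against 0.246 CPM, a count of 2, in Control 1 and 0 in the other Controls. Counts were found in 5 of 8 Dnmt1cKO libraries, 202 in all, and the ratio of the mean Dnmt1cKO level to the pooled Control level was 13.2 (exact Poisson 95% counting interval 3.65 to 109). By edgeR its adjusted p was 0.347 with 12 libraries and 0.673 with 10. The genes of upper, cornifying layers were near 0, with 30 counts of Dsc1 in 3 Dnmt1cKO libraries, 13 counts of Dsg1b in Control 1, and none of Dsg1a, Dsg1c or Dsg4 in any library. All 4 desmosomal cadherins tested with 12 libraries and all 5 tested with 10 had a log2 fold change above 0 in edgeR, with 0 called. Of all genes, 57.3% and 57.2% were above 0, so such a count in so few genes says little. Dsg3 and, with 10 libraries, Dsc1 also passed the filter on low counts only through Dnmt1cKO libraries, so their sign carries no weight. RLE scaling turned the sign of Dsg2 and Dsc2 with 12 libraries, and DESeq2 called Dsc2 higher with 10.

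In the desmosomal plaque, desmoplakin and plakoglobin were low in Control 3 and in the library labelled Control 4. Dsp was at 228 to 1202 CPM in Dnmt1cKO with a median of 943, against 604, 784 and 17.3 CPM in Controls 1, 2 and 3 and 293 CPM in the library labelled Control 4. Jup, shared by desmosomes and adherens junctions, was at 99.8 to 239 CPM in Dnmt1cKO with a median of 184, against 134, 146 and 7.54 CPM in Controls 1, 2 and 3 and 25.6 CPM in the library labelled Control 4. For both genes 5 of 8 Dnmt1cKO libraries lay above every Control, Dnmt1cKO 8 was the lowest of its group, and Control 3 was the lowest library of all. The log2 fold change of Dsp was 0.99 ± 0.61 (edgeR adjusted p = 0.436) with 12 libraries and 0.35 ± 0.44 (adjusted p = 0.823) with 10. That of Jup was 1.10 ± 0.59 (edgeR adjusted p = 0.336) with 12 libraries and 0.35 ± 0.34 (adjusted p = 0.757) with 10.

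Pkp4, a plakophilin that is also found at adherens junctions, was the most abundant plakophilin per kilobase in every library and the member with the lowest p. It lies on chromosome 2, 59160850 to 59355208 on the plus strand of GRCm38. Its level was 209 to 376 CPM in Dnmt1cKO with a median of 282, against 301, 545 and 874 CPM in Controls 1, 2 and 3 and 1894 CPM in the library labelled Control 4. Levels in Dnmt1cKO were close to each other, 5 of 8 were below every Control, and the Controls were spread over a wider range than the Dnmt1cKO libraries. Pkp4 fell to 0.323 times the Control level, a log2 fold change of -1.63 ± 0.38 (SE, edgeR adjusted p = 0.0155), with 12 libraries. Without the library labelled Control 4 alone it was -0.90 (adjusted p = 0.160), and with 10 libraries -0.47 ± 0.27 (adjusted p = 0.598). The call thus rested on the library labelled Control 4, the shallowest, with a Dnmt1 count of 1. Over the 21 alternatives its adjusted p ran between 0.00213 and 0.598, and the log2 fold change was negative in each of them.

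The other plakophilins varied more. Pkp2, known from simple epithelia and heart muscle, was at 3.82 to 21.9 CPM in Dnmt1cKO with a median of 8.64, against 8.24, 0 and 46.0 CPM in Controls 1, 2 and 3 and 313 CPM in the library labelled Control 4. Its log2 fold change was -3.20 ± 0.92 (edgeR adjusted p = 0.0528) with 12 libraries and 1.26 ± 1.35 (adjusted p = 0.783) with 10, so its sign differed between the comparisons. Pkp1, typical of stratified epithelium, was at 0 to 141 CPM in Dnmt1cKO with a median of 71.5, against 69.2, 142 and 0.754 CPM in Controls 1, 2 and 3 and 37.0 CPM in the library labelled Control 4. Dnmt1cKO 2 had no count of Pkp1, and the groups otherwise overlapped, with a log2 fold change of 0.19 ± 0.96 (edgeR adjusted p = 0.945) that was negative under RLE scaling (-0.07) and with 10 libraries (-0.47 ± 1.16). Pkp3, present in most desmosomes of epithelia, was at 12.1 to 135 CPM in Dnmt1cKO with a median of 58.7, against 77.1, 135 and 2.26 CPM in Controls 1, 2 and 3 and 387 CPM in the library labelled Control 4. For Pkp3 the log2 fold change was -1.13 ± 0.70 (edgeR adjusted p = 0.420) with 12 libraries and -0.57 ± 0.59 (adjusted p = 0.776) with 10. Set per kilobase, Pkp4 made up 49.6 to 90.3% of the sum over the plakophilins in Dnmt1cKO, against 59.6%, 60.5% and 91.7% in Controls 1, 2 and 3 and 62.2% in the library labelled Control 4.

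The claudins number 25 in the table, of which 12 were tested and 0 were called by edgeR in either comparison, while 11 had no count in any library. With 12 libraries Cldn11 was called lower by DESeq2 (adjusted p = 0.0214) and by edgeR with RLE scaling (adjusted p = 0.0450). The median log2 fold change of the tested claudins was 0.74 with 12 libraries and 0.31 with 10, against 0.22 and 0.16 for all genes. Cldn4, a sealing claudin of many epithelia, was the main claudin of the tissue. Its level was 233 to 381 CPM in Dnmt1cKO with a median of 267, against 222, 225 and 36.9 CPM in Controls 1, 2 and 3 and 145 CPM in the library labelled Control 4. All 8 Dnmt1cKO libraries were above every Control, but the lowest of them exceeded Controls 1 and 2 by only a few percent. Cldn4 had a log2 fold change of 0.85 ± 0.45 (edgeR adjusted p = 0.326) with 12 libraries and 0.41 ± 0.25 (adjusted p = 0.604) with 10. Among the 40 tested genes, 3 (7.50%) had every Dnmt1cKO library above every Control (Cdh19, Cldn4 and Ocln), against 2.59% of all genes, and 0 had the opposite, against 0.486%. For Cdh19 this is partly set by the depth of the library labelled Control 4. With 10 libraries the same 3 of 46 (6.52%) lay above Controls 1 and 2, against 4.77% of all genes, and 2 (Cdh6 and Cldn1, 4.35%) lay below them, against 3.91%.

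Cldn7, Cldn6 and Cldn3 came next per kilobase with Cldn8. Cldn7, which lines the lateral membrane of many epithelia, was at 42.0 to 198 CPM in Dnmt1cKO with a median of 57.1, against 33.1, 45.9 and 39.2 CPM in Controls 1, 2 and 3 and 5.69 CPM in the library labelled Control 4. Dnmt1cKO 8 alone was above 74.8 CPM, and 6 of 8 Dnmt1cKO libraries were above every Control. Cldn6, a claudin of embryonic epithelia, was at 4.71 to 152 CPM in Dnmt1cKO with a median of 49.8, against 35.7, 34.1 and 14.3 CPM in Controls 1, 2 and 3 and 2.84 CPM in the library labelled Control 4. Levels spread more widely in Dnmt1cKO than among the Controls, with Dnmt1cKO 7 highest and Dnmt1cKO 2 lowest of the group. Cldn3, which lies 39.3 kb from Cldn4 on chromosome 5, was at 14.8 to 45.9 CPM in Dnmt1cKO with a median of 25.6, against 5.78, 48.6 and 0 CPM in Controls 1, 2 and 3 and 230 CPM in the library labelled Control 4. Here the Controls held both the lowest and the highest libraries. With 12 libraries the log2 fold changes were 1.22 ± 0.69 for Cldn7 (edgeR adjusted p = 0.369), 1.52 ± 0.82 for Cldn6 (adjusted p = 0.338) and -1.29 ± 0.86 for Cldn3 (adjusted p = 0.470). With 10 libraries they were 0.97 ± 0.54 for Cldn7 (edgeR adjusted p = 0.586), 0.97 ± 0.87 for Cldn6 (adjusted p = 0.722) and 0.15 ± 0.70 for Cldn3 (adjusted p = 0.962).

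Cldn11 and Cldn5, known from other cell types, were each highest in a single Control library. Cldn11, the claudin of oligodendrocytes and Sertoli cells, was at 0.673 to 18.2 CPM in Dnmt1cKO with a median of 9.19, against 37.6, 0.674 and 210 CPM in Controls 1, 2 and 3 and 5.69 CPM in the library labelled Control 4. Control 3 and Control 1 were the highest libraries, and the log2 fold change was -2.80 ± 0.93 (edgeR adjusted p = 0.0983) with 12 libraries and -1.013 ± 1.13 (adjusted p = 0.794) with 10. These are also the Controls with the highest neural and glial marker sums (589 and 176 CPM). That of Control 1 lay within the 21.4 to 284 CPM of Dnmt1cKO. The part of these markers was not tested. Cldn5, the claudin of blood vessels, was at 0 to 14.5 CPM in Dnmt1cKO with a median of 0.0521, against 25.6 CPM in Control 2 and 0 in the other Controls. Its log2 fold change was -1.39 ± 1.68 (edgeR adjusted p = 0.718) with 12 libraries and -2.25 ± 2.11 (adjusted p = 0.741) with 10. The summed endothelial markers in Control 2 were 14.2 CPM, within the 7.71 to 78.7 CPM of Dnmt1cKO and below the 56.9 CPM of Control 1, where Cldn5 was at 0.

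Of the remaining claudins, Cldn8, a claudin of the kidney collecting duct, was at 13.3 to 76.0 CPM in Dnmt1cKO, against 37.7, 57.0 and 8.29 CPM in Controls 1, 2 and 3 and 8.53 CPM in the library labelled Control 4. Cldn12 was at 10.3 to 134 CPM in Dnmt1cKO, against 42.9, 26.0 and 89.0 CPM in Controls 1, 2 and 3 and 76.8 CPM in the library labelled Control 4. Cldn1, the claudin of the skin barrier, was at 0 to 8.48 CPM in Dnmt1cKO and below both Control 1 (11.4 CPM) and Control 2 (13.8 CPM) in all 8 libraries. It was at 0 in Control 3 and at 2.84 CPM in the library labelled Control 4, and it was not called in either comparison (edgeR adjusted p = 0.683 and 0.647). Cldn23 was at 1.141 to 48.7 CPM in Dnmt1cKO and 1.51 to 21.3 CPM in the Controls. The row named Cldn25 was at 15.2 to 44.1 CPM in Dnmt1cKO, against 32.9, 1.012 and 0.754 CPM in Controls 1, 2 and 3 and 0 in the library labelled Control 4. That symbol is an older name of both Cldnd1 and a pseudogene in the RefSeq table, so which gene its counts belong to is uncertain. Cldn9, whose gene ends 137 bases from the end of Cldn6 on the opposite strand of chromosome 17, had 130 counts in Dnmt1cKO 1, 3, 5 and 6 and none in the other 4 Dnmt1cKO or the Control libraries. Its mean Dnmt1cKO level was at least 5.81-fold higher than a floor of 3 counts over the Controls, and it was not called (edgeR adjusted p = 0.250). Cldn10 had 53 counts in 3 Dnmt1cKO libraries and Cldn15 had 75 counts in Dnmt1cKO 8, with 0 of either in the Controls. The claudins with no count in any library were Cldn2, Cldn13, Cldn14, Cldn16, Cldn17, Cldn18, Cldn19, Cldn20, Cldn22, Cldn24 and Cldn26.

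**Figure D3:**
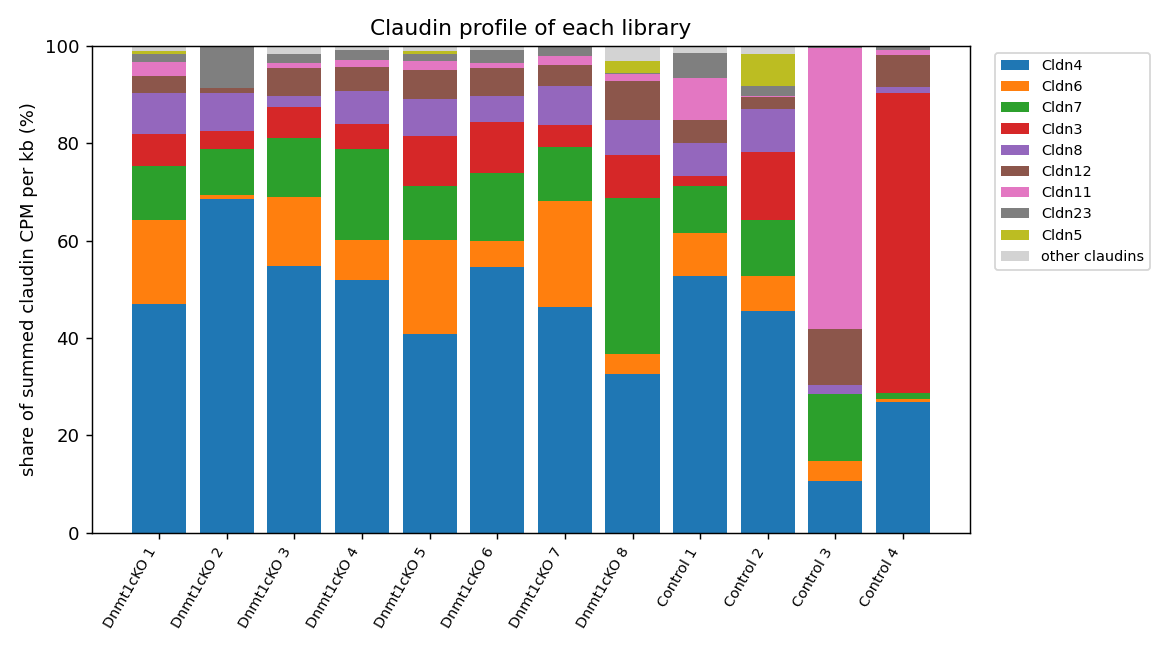
Share of each claudin in the summed claudin level (CPM per kb of exon) of each library, in percent, with Dnmt1cKO libraries left of the Control libraries. Cldn4 takes the largest share in all 8 Dnmt1cKO libraries and in Controls 1 and 2, Cldn11 in Control 3 (57.7%) and Cldn3 in the library labelled Control 4 (61.6%).

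The make-up of the claudins, set per kilobase and without Cldn25 and Cldn26, for which no exon length was found, was led by Cldn4 in Dnmt1cKO and in Controls 1 and 2. Cldn4 made up 32.5 to 68.6% of the claudin level per kilobase in Dnmt1cKO, with a median of 49.4%, against 52.7% and 45.5% in Controls 1 and 2, 10.5% in Control 3 and 26.9% in the library labelled Control 4. Cldn7 made up 9.28 to 32.1% in Dnmt1cKO, against 9.64%, 11.4% and 13.7% in Controls 1, 2 and 3 and 1.3% in the library labelled Control 4. Cldn6 ranged widely within Dnmt1cKO, between 0.895% and 21.7%, against 8.92%, 7.26% and 4.29% in Controls 1, 2 and 3 and 0.557% in the library labelled Control 4. Other shares in Controls 1 and 2 lay outside the span of the Dnmt1cKO libraries. Cldn11 made up 0.118 to 2.88% in Dnmt1cKO, against 8.67% in Control 1 and 0.132% in Control 2. Cldn3 made up 3.84 to 10.4% in Dnmt1cKO, against 1.98% in Control 1 and 14.1% in Control 2, and Cldn5 made up 0 to 2.46% in Dnmt1cKO, against 0% in Control 1 and 6.64% in Control 2. None of these shares was tested.

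Occludin, the strand protein that accompanies claudins, had the clearest separation of the tight junction genes. Ocln lies on chromosome 13, 100496507 to 100552718 on the minus strand of GRCm38. It was at 63.0 to 162 CPM in Dnmt1cKO with a median of 82.1, against 58.0, 35.4 and 6.78 CPM in Controls 1, 2 and 3 and 2.84 CPM in the library labelled Control 4. All 8 Dnmt1cKO libraries lay above every Control, although Dnmt1cKO 8 was only just above Control 1. Ocln had a log2 fold change of 1.75 ± 0.70 (edgeR adjusted p = 0.177, unadjusted p = 0.0177) with 12 libraries and 1.002 ± 0.39 (adjusted p = 0.419, unadjusted p = 0.0201) with 10. It was not called by edgeR in either, was called higher by DESeq2 with 12 libraries, and was called by edgeR once Control 1 was left out. Without Control 1, 657 of all 13161 genes were called higher, against 132 of 12761 with 12 libraries. Ocln and Cdh19 were the only tested genes of the set with an unadjusted p under 0.05 and the same sign in both comparisons.

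The zonula occludens scaffolds, which bind claudin and occludin tails to actin, had no call by edgeR. Tjp1 (ZO-1) was at 87.3 to 372 CPM in Dnmt1cKO with a median of 226, against 183, 252 and 109 CPM in Controls 1, 2 and 3 and 114 CPM in the library labelled Control 4. Its groups overlapped, with a log2 fold change of 0.47 ± 0.45 (edgeR adjusted p = 0.630) with 12 libraries and 0.15 ± 0.39 (adjusted p = 0.927) with 10. Tjp3 (ZO-3) was at 25.6 to 76.4 CPM in Dnmt1cKO, against 31.6, 20.2 and 96.5 CPM in Controls 1, 2 and 3 and 11.4 CPM in the library labelled Control 4.

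Epcam and F11r were found at 213 CPM or more in every library. Epcam, an adhesion molecule of simple and progenitor epithelia that binds claudins, was at 528 to 949 CPM in Dnmt1cKO with a median of 725, against 515, 641 and 783 CPM in Controls 1, 2 and 3 and 808 CPM in the library labelled Control 4. In Control 3, where 6 of 8 epithelial markers were below every Dnmt1cKO library and Krt8 and Krt18 were above Controls 1 and 2, it was within the Dnmt1cKO range. Epcam had a log2 fold change of 0.09 ± 0.32 (edgeR adjusted p = 0.914) with 12 libraries, negative under RLE scaling (-0.42), and 0.41 ± 0.25 (adjusted p = 0.604) with 10. F11r, junctional adhesion molecule A of tight junctions, was at 244 to 554 CPM in Dnmt1cKO with a median of 287, against 269, 374 and 213 CPM in Controls 1, 2 and 3 and 734 CPM in the library labelled Control 4. For F11r the log2 fold change was -0.28 ± 0.39 (edgeR adjusted p = 0.764) with 12 libraries, positive with library totals alone (0.05) and lower under RLE scaling (-1.008) and DESeq2 (-1.006, adjusted p = 0.238), and 0.09 ± 0.31 (adjusted p = 0.948) with 10.

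**Figure D4:**
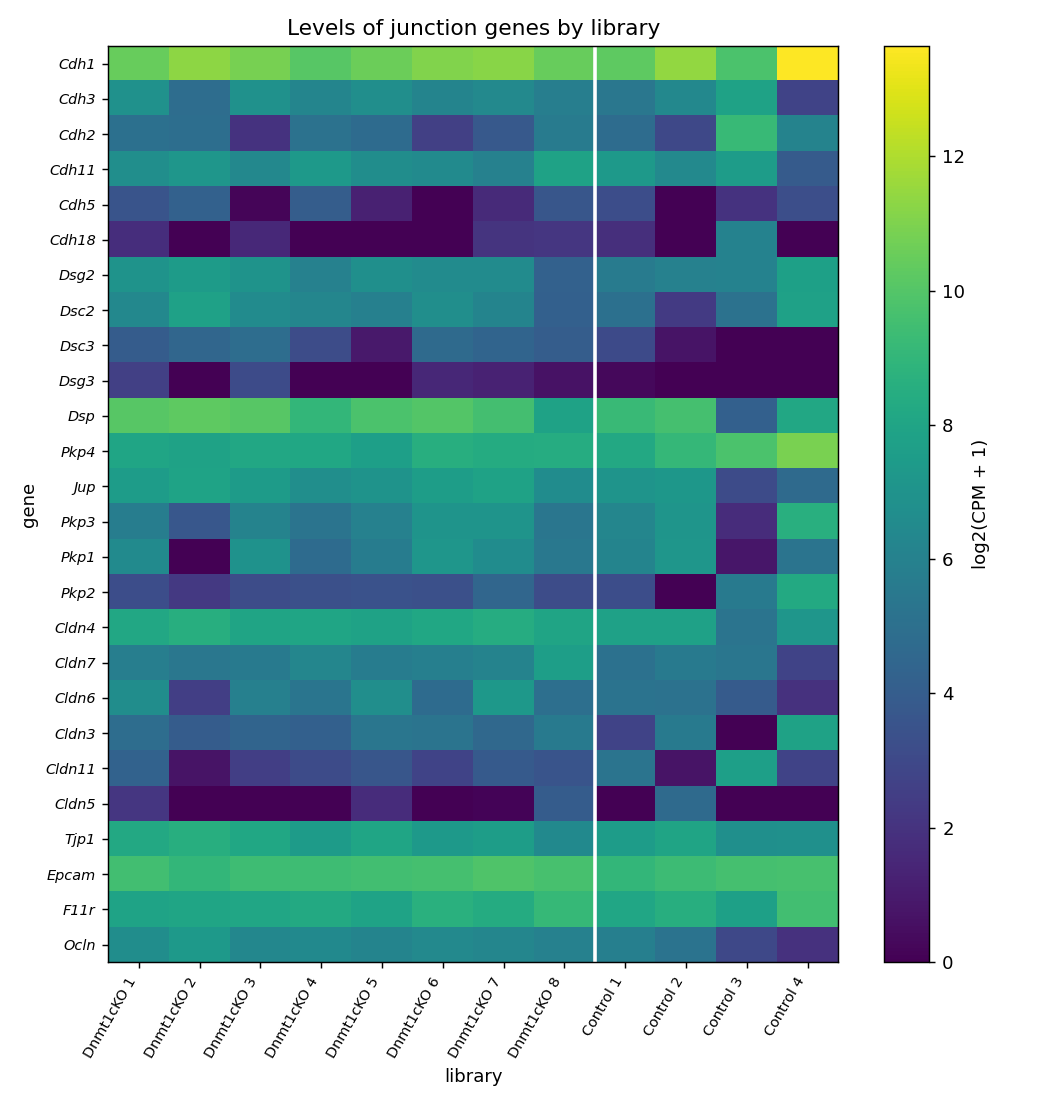
Levels of the named genes in each library, as log2(CPM + 1) in colour, with the 8 Dnmt1cKO libraries left of the white line and the 4 Controls right of it. The library labelled Control 4 is highest for Cdh1, Dsg2, Pkp2, Pkp3, Pkp4, Cldn3 and F11r, and Control 3 is highest for Cdh2, Cdh3, Cdh18 and Cldn11.

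Ordered by median CPM per kilobase of exon in Dnmt1cKO, the 67 genes with an exon length were led by Cdh1 (379), Epcam (352), Cldn4 (147), F11r (114) and Dsp (98.3), followed by Pkp4 (59.0), Jup (57.2) and Cldn7 (38.7). The ranges over the 8 libraries overlapped between neighbours in this order, as for Cdh1 (249 to 581) and Epcam (256 to 460). Cdh1 and Epcam held the leading places in the mean of Controls 1 and 2 as well. The summed level of the 69 genes was 4534 to 7135 CPM in Dnmt1cKO, against 4436, 6645 and 5122 CPM in Controls 1, 2 and 3 and 18446 CPM in the library labelled Control 4, where Cdh1 made up most of it.

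The partners of these genes were read from lists of further junction genes. Of 14 adherens junction partners, such as catenins and nectins, 13 were tested and 1, Mllt4, the actin-binding scaffold afadin, was called lower with 12 libraries. Of all genes, 1.55% were called lower and 1.03% higher with 12 libraries, which is the background for each of these lists. Mllt4 was at 180 to 288 CPM in Dnmt1cKO, against 191, 282 and 269 CPM in Controls 1, 2 and 3 and 2073 CPM in the library labelled Control 4. Only that library stood apart. It fell by 1.58 ± 0.45 on the log2 scale (edgeR adjusted p = 0.0496) with 12 libraries and had 0.05 (adjusted p = 0.965) with 10. Of 20 tight junction partners, 19 were tested and 0 were called by edgeR, with a median log2 fold change of 0.86 with 12 libraries and 0.42 with 10. All 11 desmosome and hemidesmosome partners were tested with 0 calls by edgeR and a median of 1.28 with 12 libraries and 0.66 with 10. Of 15 transcriptional regulators of epithelial adhesion, 14 were tested with 0 calls by edgeR and a median of -1.34 with 12 libraries and -0.54 with 10. The median over all genes was 0.22 with 12 libraries and 0.16 with 10. At an unadjusted p under 0.05 with 12 libraries, 3 adherens junction, 2 tight junction, 5 desmosome and hemidesmosome and 0 regulator genes were higher, against 8.19% of all genes. Lower at that p were 1, 0, 0 and 3 genes in the same order, against 9.54%. With 10 libraries 3, 3, 2 and 1 genes in the same order were higher, against 6.96% of all genes, and 0 were lower in any list, against 2.22%. With 10 libraries edgeR called 0 genes of these lists at an adjusted p under 0.05, against 0.322% of all genes higher and 0.0143% lower.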

How the data were processed

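The deposited table holds expected counts (RSEM estimates, in which reads that fit several genes are divided), 1 value per gene and library for 12 libraries. The submitters' processing notes name RSEM 1.2.3, Bowtie 0.12.9, bcl2fastq 2.17.1.14 and mouse build mm10. No source used here gives the annotation, the mapping settings or the use of strand, so overlapping genes and near-identical copies (the Dsg1 genes) are uncertain. Per the labels' protocols, polyadenylated RNA of pooled embryos was fragmented, primed with random hexamers and amplified by PCR. No molecular identifiers are named, so intervals and floors cover counting error only.

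Expected counts were rounded to whole numbers. Dnmt1cKO was compared with Control over all genes with edgeR 4.0.16 (R 4.3.3) by the quasi-likelihood F-test with TMM factors, filterByExpr (minimum count 10, minimum total 15) and Benjamini-Hochberg adjustment, called at an adjusted p under 0.05. The coefficient of variation between libraries (square root of the common dispersion) was 0.984. The same fit was made without Control 3 and Control 4. SE is the log2 fold change divided by the square root of F. CPM uses TMM-adjusted totals, and CPM per kb uses the exon length of GENCODE M21 (GRCm38), which held 67 of the 69 symbols. Gene positions are from the same annotation, and promoter windows are from RefSeq (GRCm38.p6). The scripts were tested on simulated counts, which varied less between libraries than these data and held no library like Control 3 or Control 4. That test therefore does not show how often calls are right at the spread seen here. Alternatives were RLE factors, library totals alone, no filter, DESeq2 1.42.0, limma-voom (limma 3.58.1), blocks for replicate number and for the description code, and leaving out each library.

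The members, gene lists and the rule for named genes were chosen with earlier results of these data known. Values in every library are given for called members, for up to 4 further members in each direction with the lowest p and a mean of at least 5 CPM, and for a core set of junction genes. Other genes are given by range or count, and some were named after their values were seen. 1 gene of the set is not reported here by name.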

Additional observations from a re-analysis of the deposited data

Results flagged for a closer look

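In 7 of 54 gene and group combinations checked, the lowest or highest library stood apart from the others of its group by Dixon's 95% criterion on log2(CPM + 1). Chance meets this criterion in about 5% of groups where values vary continuously. In Dnmt1cKO, Cldn7 stood at 198 CPM in Dnmt1cKO 8 (the other 7 at 42.0 to 74.8), Dsg2 at 17.97 CPM in Dnmt1cKO 8 (others 63.6 to 180), Dsc3 at 0.877 CPM in Dnmt1cKO 5 (others 7.95 to 28.2) and Pkp1 at 0 CPM in Dnmt1cKO 2 (others 26.0 to 141). Among the Controls, Cldn5 stood at 25.6 CPM in Control 2 and Dsg3 at 0.246 CPM in Control 1, with 0 in the other Controls, and Cldn7 stood at 5.69 CPM in the library labelled Control 4 (others 33.1 to 45.9). Where all other Controls are at 0, any value above 0 meets the criterion. The flags of Cldn5 and of Dsg3, which had a count of 2, therefore carry no weight.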

How the results depend on the processing

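The 2 genes called lower with 12 libraries (Cdh2 and Pkp4) were also called without a filter on low counts. RLE scaling gave 5 lower (Cdh1, Cdh2, Cldn11, Pkp2 and Pkp4), and DESeq2 gave the same 5 lower with 2 higher (Cdh19 and Ocln). Limma-voom with quality weights, library totals alone and the omission of Control 3 together with the library labelled Control 4 each gave 0 lower, and a block for the description code gave 1 (Pkp4). Of all 12761 genes, library totals alone called 47 lower and the description code block called 72 lower. Leaving out single libraries gave 0 to 4 lower and 0 to 3 higher, with 0 lower without the library labelled Control 4. Without Control 1 there were 4 lower (Cdh1, Cdh2, Pkp2 and Pkp4) and 3 higher (Cldn25, Dsc3 and Ocln). Calls over the whole table rose as well without Control 1, to 657 higher and 494 lower of 13161 genes. They were 132 and 198 of 12761 with 12 libraries, and 60 and 36 of 13352 without the library labelled Control 4. Without Control 2 the 4 lower were Cdh2, Cldn11, Pkp2 and Pkp4, against 405 lower of all 13325 genes. Without any of Dnmt1cKO 1 to 7 it was Pkp4 alone, against 95 to 158 lower genes in the whole table. Over all 21 alternatives Pkp4 was called in 15 and Cdh2 in 6. In the 10-library comparison, DESeq2 gave 2 higher and 1 lower, and leaving out single libraries gave 0 to 1 higher (1 without Control 1, which was Cldn25, and 1 without Dnmt1cKO 8). Among the partner lists 1 gene was lower with 12 libraries and 0 with 10, against 1.55% and 0.0143% of all genes. Where no construction shows it, the cause was not tested.

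The replicate numbers of the titles did not pair libraries, since the correlations of same-numbered libraries over libraries 1 to 4 were 0.076, 0.029, -0.056 and -0.013, and 1 of 4 libraries correlated best with its own number. With a replicate block over these 8 libraries 0 genes of the set were lower, as with the same 8 libraries and no block (0). Of all 11459 genes, 29 were lower with the block and 36 without it. The replicate block turned the sign of Cdh3 (0.51), Cldn3 (0.37), Epcam (-0.0636) and Pkp1 (-0.11), and the same 8 libraries without it that of Epcam (-0.0792) and Pkp1 (-0.0169).

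The other changes of sign, as log2 fold changes, were in genes not called with 12 libraries, except Cdh2. RLE scaling gave Dsc2 -0.66, Dsg2 -0.71, Epcam -0.42 and Pkp1 -0.0685, and DESeq2 gave Dsc2 -0.68, Dsg2 -0.71, Epcam -0.41 and Pkp1 -0.0715. Library totals alone gave Cdh3 0.12 and F11r 0.0508. Limma-voom gave Cdh11 -0.25, Cdh3 0.84, Cdh5 -0.39, Cldn3 1.204, Pkp1 -0.0104 and Pkp2 1.76. The 10 libraries gave Cdh18 0.11, Cdh2 0.52, Cdh3 0.50, Cldn3 0.15, F11r 0.0863, Pkp1 -0.47 and Pkp2 1.26, and the description code block gave Cdh3 0.85, Cdh5 -0.89, Cldn5 1.34 and Dsg2 -0.19. Leaving out single libraries, the range crossed 0 for Cdh1 (-1.64 to 0.23), Cdh11 (-0.15 to 0.48), Cdh18 (-4.03 to 0.40), Cdh3 (-0.43 to 0.89), Cldn3 (-1.70 to 0.72), Cldn5 (-1.82 to 7.30), Dsc2 (-0.0453 to 2.02), Dsg2 (-0.14 to 0.86), Epcam (-0.0200 to 0.26), F11r (-0.48 to 0.26) and Pkp1 (-0.22 to 0.999). Depth limits the low genes: in the library labelled Control 4 a gene needs 8.53 CPM to reach 3 counts.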
